A study of Mus musculus with 6 samples.

Results

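The genes described here are 10 integrin subunits and adhesion receptors of T cells, chosen by name: Itgal, Itgb2, Itga4, Itgb1, Itgb7, Itgae, Itgav, Cd44, Cd2 and Icam1. All 10 had a row among the 27480 genes of the deposited table, and all 10 were among the 16592 genes that passed the filter on low counts. They were measured by bulk poly(A) RNA sequencing in 6 libraries of mouse OT1 CD8+ T cells, cytotoxic cells bearing a transgenic antigen receptor for an ovalbumin (OVA) peptide. All cells were labelled wild type and taken 48 h into stimulation with that peptide. The groups are 3 libraries with an empty overexpression (OE) vector and 3 with OE PTMA, which encodes prothymosin alpha, an acidic protein of the nucleus. The sources used here give neither the age and sex of the mice nor the promoter, species and delivery of the construct. Nothing in the labels ties replicates to different mice or cultures, and the p-values therefore reflect library-to-library spread alone, part of which may be technical.

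Integrins are paired surface receptors of 1 alpha and 1 beta subunit that hold T cells to other cells and to the extracellular matrix. They rest in a bent state and are switched on from inside the cell when talin and kindlin bind the beta tail after antigen receptor or chemokine signals, so RNA levels do not report their activity. On CD8+ T cells the pair of Itgal with Itgb2 holds the cell to ICAM-bearing targets in the immune synapse, the Itga4 pairs with Itgb1 or Itgb7 serve entry into inflamed tissue and gut, and Itgae with Itgb7 holds resident cells to epithelium. Cd44, which binds hyaluronan, and Cd2, which binds Cd48 in the mouse, are adhesion receptors outside the integrin family.

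Total counts ran from 54989408 to 66767589 per library. Levels are given as CPM, counts scaled by library size with TMM factors, unless FPKM is named. Ptma itself was measured at 848, 783 and 1146 CPM without the construct and 1152, 1346 and 1272 CPM with it, which do not overlap. For its log2 fold change of 0.44 (SE 0.13) edgeR gave an adjusted p of 0.951. The labelled cell type fitted its markers: Cd8a stood at 598 to 682 CPM and Cd4 at 0.185 to 1.19 CPM over the 6 libraries. Of 11 marker lists, 2 did not overlap between groups. The 3 erythroid genes summed to 0.248 to 0.387 CPM in vector and 0.0765 to 0.122 CPM in PTMA libraries. The 5 mature dendritic cell genes summed to 1.18 to 2.66 CPM in vector and 8.93 to 11.9 CPM in PTMA libraries, with Ccl17 and Il12b at 0 counts in every vector library.

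None of the 10 adhesion genes passed the test between PTMA and vector. The edgeR quasi-likelihood test called 0 of 10 at an adjusted p of 0.05, where it called 2 of 16592 genes in all (0.0121%). DESeq2 also called 0 of 10, against 0.235% of the genes to which it gave an adjusted p. At an unadjusted p under 0.05 edgeR had 1 of the 10, Itgb1, which was lower, against 4.65% of all genes tested (2.72% lower and 1.92% higher). The median log2 fold change of the 10 was -0.01, beside -0.01 over all genes tested (-0.009 and -0.015 to 3 decimals), with 4 above 0 and 6 below, where 46.8% of all genes were above 0. Single values ran from -0.19 for Itgav to 0.10 for Itgae. The groups did not overlap for 2 of the 10, Itgb1 (lower) and Itgb2 (higher), where 10.8% of all genes tested did not overlap (5.38% lower and 5.39% higher). Together the 10 genes took 0.285% to 0.303% of all counts in each library.

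**Figure D1:**
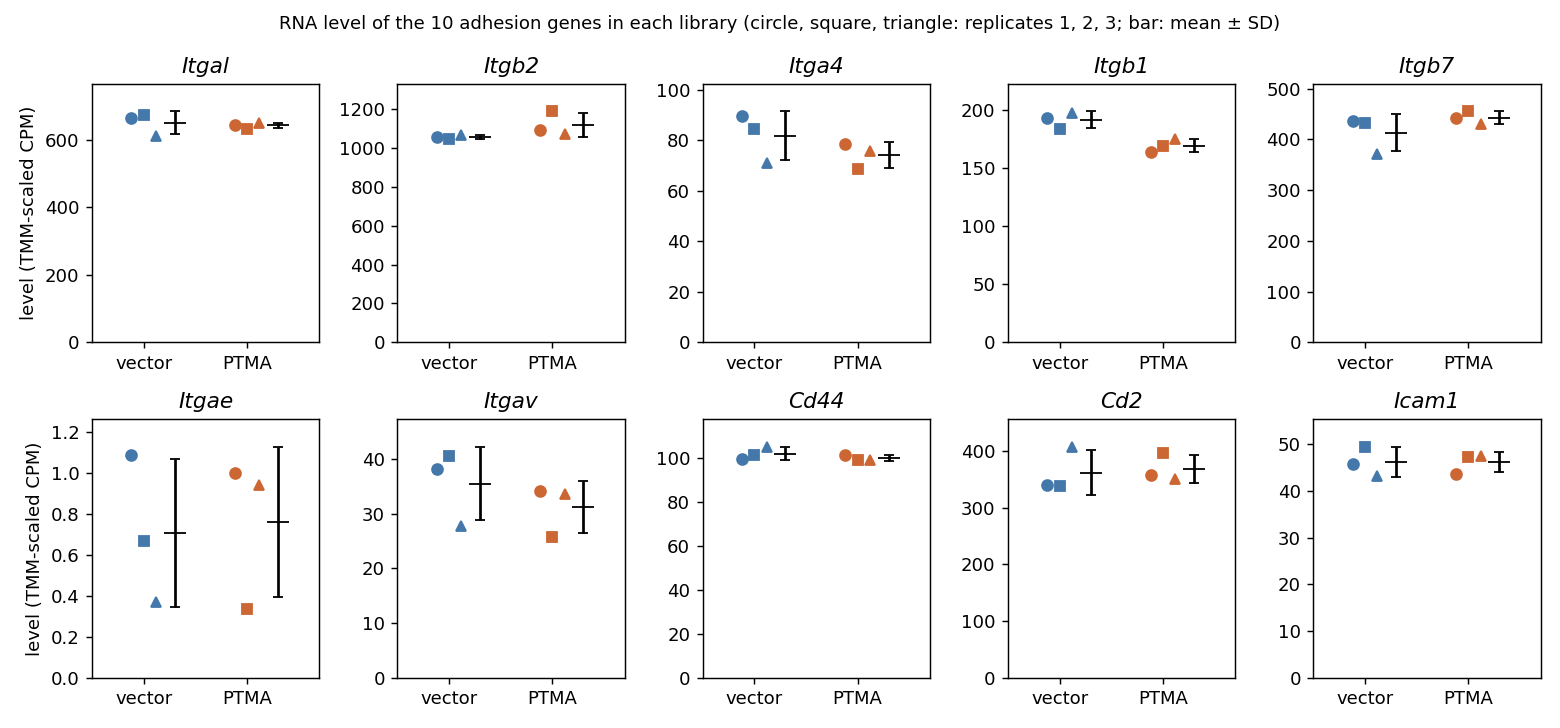
RNA level in TMM-scaled CPM (vertical axes from 0, one scale per gene) of the 10 adhesion genes in the 3 vector (blue) and 3 PTMA (orange) libraries; marker shapes are replicate numbers and black bars the mean ± SD (n = 3 per group). The 3 PTMA libraries of Itgb1 lie between 164 and 175 CPM, below the vector libraries at 184 to 198 CPM, whereas Icam1 and Cd44 mix.

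The 10 genes covered a wide range of levels, and their order was the same in both groups. Compared per length in FPKM, which divides by the length of all annotated exons of a gene, Itgb2 was the most abundant, at 311 ± 10.6 FPKM (SD, n = 3) in the vector libraries. Cd2 followed at 187 ± 15.04, Itgb7 at 134 ± 16.0, Itgal at 89.0 ± 7.94 and Itgb1 at 42.2 ± 0.17 FPKM. Cd44 stood at 13.5 ± 0.52, Icam1 at 9.53 ± 1.05, Itga4 at 5.27 ± 0.75, Itgav at 2.98 ± 0.67 and Itgae at 0.14 ± 0.07 FPKM. The ranges of neighbours in this order did not overlap in any of the 9 steps over the 6 libraries. In each alpha-beta pair compared below, the beta chain stood above its alpha chain. Itgb2 lay at the 99.3rd percentile of tested genes in the vector libraries and Itga4 at the 59.3rd. Divided by the longest coding transcript in place of all exons, Cd44 and Icam1 were level at 18.1 and 18.2 CPM per kilobase, because 4360 bases of exon are annotated for Icam1 against 2535 in its longest coding transcript.

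The pair of Itgal and Itgb2 that binds Icam1 was abundant on both sides of the comparison. Itgal, the alpha chain (chromosome 7, 127296260 to 127335138 on GRCm38), had 665, 673 and 610 CPM in vector libraries 1 to 3, with 644, 633 and 649 CPM in PTMA libraries 1 to 3. The PTMA values all lay inside the vector range, and the 95% interval of the log2 fold change ran from -0.16 to 0.12. Itgb2, the beta chain (chromosome 10, 77530252 to 77565686), had 1056, 1048 and 1064 CPM in the vector and 1092, 1188 and 1072 CPM in the PTMA libraries. Every PTMA library was above every vector library, PTMA 3 barely so. The log2 fold change of Itgb2 was 0.08 (SE 0.06; edgeR, adjusted p = 0.951), with a 95% interval of -0.06 to 0.22. It was 0.04 without PTMA 2 and 0.13 without PTMA 3. In FPKM the groups overlapped, with 322.8 in vector 2 and 319.4 in PTMA 3.

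Icam1, the ligand that activated T cells and dendritic cells display (chromosome 9, 21015985 to 21028817), was at nearly the same mean in both groups. Vector libraries 1 to 3 held 45.8, 49.4 and 43.2 CPM, PTMA libraries 1 to 3 held 43.6, 47.3 and 47.4 CPM, and the groups overlapped. Its log2 fold change was -0.0019 (SE 0.09; edgeR, adjusted p = 0.998), its sign turned under 4 alternatives beside those that leave out a library, and the 95% interval was -0.20 to 0.19. The mature dendritic cell markers stood at higher levels in these PTMA libraries, though 0 of the 3 tested (Fscn1, Ccl22 and Cacnb3) passed the edgeR test, and Ccl17 and Il12b each had 0 counts in 1 PTMA library too. The chemokine gene Ccl22 lay at 0.709 to 2.09 CPM in vector and 5.86 to 8.42 CPM in PTMA libraries. The actin bundler Fscn1 lay at 0.0806 to 0.339 and 1.51 to 1.82 CPM, and the channel subunit Cacnb3 at 0.232 to 0.387 and 1.26 to 2.37 CPM. The part of these mature dendritic cell genes in the Icam1 level was not tested. The separate list of myeloid and dendritic cell genes overlapped between groups. It summed to 10.48 to 11.65 CPM in vector and 10.2 to 12.32 CPM in PTMA libraries. In bulk samples, fewer cells of a type and less RNA per cell cannot be told apart.

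The 3 genes of the Itga4 pairs had log2 fold changes of different sign, and none passed the edgeR test. Itgb1 (chromosome 8, 128685654 to 128733200) is the beta chain shared by many alpha chains. Vector libraries 1 to 3 held 194, 184 and 198 CPM, and PTMA libraries 1 to 3 held 164, 169 and 175 CPM. All 3 PTMA libraries were below all 3 vector libraries, 1.13-fold on the fitted scale. The log2 fold change was -0.18 (SE 0.06, 95% interval -0.33 to -0.03), with an unadjusted p of 0.0214 and an adjusted p of 0.951 (edgeR quasi-likelihood, Benjamini-Hochberg). In all 17 alternative fits it stayed between -0.21 and -0.15, with adjusted p-values from 0.269 to 1 and unadjusted ones from 0.00565 to 0.0808.

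Itgb7 (chromosome 15, 102215995 to 102231944, minus strand), the beta chain of gut homing, had 435, 432 and 371 CPM in vector libraries 1 to 3, with 443, 455 and 431 CPM in PTMA libraries 1 to 3. Vector 3 was the low library, and both other vector libraries lay within the PTMA range. Its log2 fold change was 0.10 (SE 0.08; edgeR, adjusted p = 0.951), and 0.03 without vector 3. Itga4 (chromosome 2, 79255426 to 79333123), the alpha chain of both pairs, had 89.7, 84.7 and 71.0 CPM in the vector and 78.6, 68.5 and 75.7 CPM in the PTMA libraries. Vector 3 fell among the PTMA libraries. The log2 fold change was -0.14 (SE 0.10; edgeR, adjusted p = 0.951). The 3' end of Itga4 overlaps Cerkl on the other strand, which had 520 to 740 counts against 4403 to 5469 for Itga4, and the sources used here do not say whether counting used strand.

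Itgb1 and Itgb7 compete for the same alpha chain, and their log2 fold changes had opposite signs, though neither gene passed the edgeR test. For that reason their promoters and that of Itga4 are shown. Each is the 250 bases before the RefSeq start on GRCm38.p6, 5′ to 3′ on the gene's strand. The windows are chr2:79255176-79255425 for Itga4 (plus strand), chr8:128685404-128685653 for Itgb1 (plus strand) and chr15:102231936-102232185 for Itgb7 (minus strand).
Itga4: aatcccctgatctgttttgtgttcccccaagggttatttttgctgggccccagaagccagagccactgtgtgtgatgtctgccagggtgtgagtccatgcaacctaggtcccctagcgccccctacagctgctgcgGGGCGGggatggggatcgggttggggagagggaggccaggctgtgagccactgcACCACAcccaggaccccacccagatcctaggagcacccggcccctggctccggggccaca
Itgb1: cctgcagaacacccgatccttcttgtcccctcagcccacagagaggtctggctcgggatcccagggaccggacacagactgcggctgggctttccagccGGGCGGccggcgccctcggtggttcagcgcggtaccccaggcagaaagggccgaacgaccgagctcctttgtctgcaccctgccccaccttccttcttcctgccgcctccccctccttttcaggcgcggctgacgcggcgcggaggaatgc
Itgb7: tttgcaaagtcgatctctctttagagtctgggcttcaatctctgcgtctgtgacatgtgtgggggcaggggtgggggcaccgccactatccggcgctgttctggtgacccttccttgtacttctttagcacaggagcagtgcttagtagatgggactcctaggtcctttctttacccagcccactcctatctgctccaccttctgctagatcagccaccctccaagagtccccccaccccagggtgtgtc
Capitals mark the GC box GGGCGG, the ETS core CCGGAA and the Runx core TGTGGT on either strand, with no match overlapping another. Itga4 held 1 GC box and 1 Runx core (read as ACCACA on this strand), Itgb1 held 1 GC box, and none of the 3 motifs was found in the Itgb7 window. Over 32851 promoter windows of the same length, 32.7% held the GC box, 12.03% the ETS core and 14.1% the Runx core on either strand. Guanine and cytosine made up 64.0% of the Itga4, 68.0% of the Itgb1 and 56.0% of the Itgb7 window, against a median of 52.4% over all windows. RefSeq promoters were matched for 6 of the 10 genes. These letters describe the windows and say nothing of which factors bound them in these cells.

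Itgae, the alpha chain CD103 of resident CD8+ T cells, was barely detected. It had 61, 43 and 23 counts in vector 1 to 3 and 65, 22 and 62 counts in PTMA 1 to 3, which is 1.09, 0.67 and 0.37 CPM and 1.001, 0.34 and 0.94 CPM. The libraries of both groups mixed, with vector 3 and PTMA 2 lowest. The log2 fold change of 0.10 had an SE of 0.54 and a 95% interval of -1.13 to 1.34, which includes a 2-fold difference in either direction. Haspin, a mitotic kinase gene, lies on the other strand inside the Itgae locus (chromosome 11, 73090583 to 73147446) and had 2029 to 2516 counts. Its part in the Itgae counts was not tested.

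Itgav, the alpha chain of vitronectin receptors that also release active TGF-beta, stood at 38.2, 40.5 and 27.8 CPM in vector libraries 1 to 3, with 34.2, 25.7 and 33.6 CPM in PTMA libraries 1 to 3. Again vector 3 and PTMA 2 were the low libraries, and the groups overlapped. Its log2 fold change was -0.19 (SE 0.16; edgeR, adjusted p = 0.952), with a 95% interval of -0.55 to 0.18, and it ran from -0.33 to -0.07 with each library left out in turn. The gene spans 83724397 to 83806916 on chromosome 2.

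Cd44 varied little between libraries. Vector libraries 1 to 3 held 99.1, 101 and 105 CPM and PTMA libraries 1 to 3 held 101, 98.9 and 98.8 CPM. The log2 fold change was -0.03 (0.0067 with the length offsets given below), with a 95% interval of -0.18 to 0.12. The table counts Cd44 (chromosome 2, 102811141 to 102901665) as 1 gene, so its splice variants were not resolved. Cd2 (chromosome 3, 101275899 to 101287939) had 340, 339 and 408 CPM in the vector and 357, 398 and 351 CPM in the PTMA libraries. Here vector 3 and PTMA 2 were the high libraries. The log2 fold change of Cd2 was 0.02 (SE 0.09; edgeR, adjusted p = 0.981), -0.0019 with libraries scaled to the same sum, and its 95% interval was -0.18 to 0.23.

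**Figure D2:**
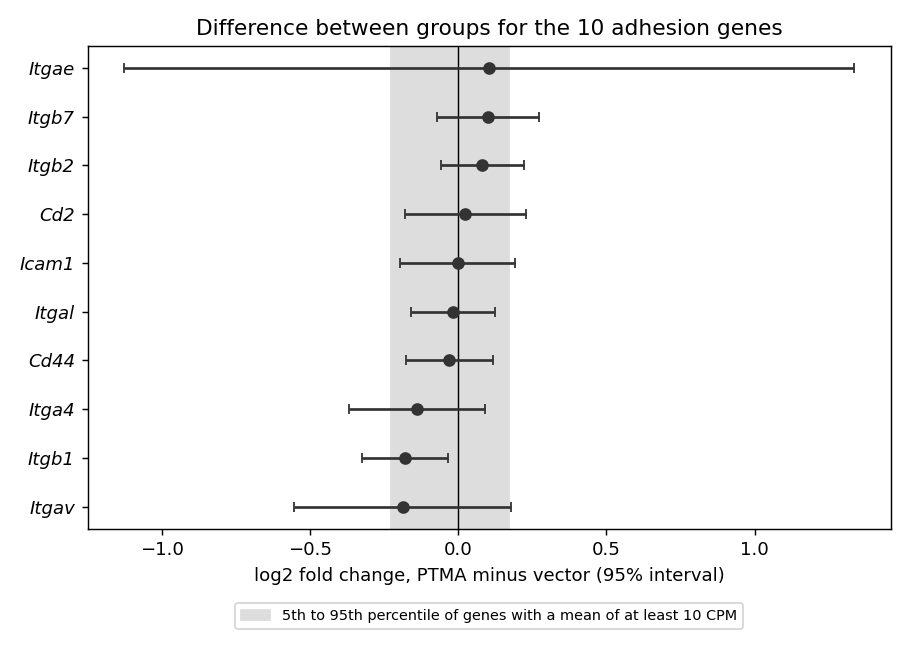
Log2 fold change, PTMA minus vector, of each of the 10 adhesion genes (points) with its 95% interval from the edgeR fit (bars); the grey band holds the 5th to 95th percentile, -0.23 to 0.17, of 8843 genes with a mean of at least 10 CPM. The interval of Itgb1, -0.33 to -0.03, is the one that lies on 1 side of 0, and that of Itgae is the widest.

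Vector 3 and PTMA 2 also stood apart over all genes, by gene length. Over genes above 1 CPM, each library was compared with the mean of all 6 on the log2 scale. For 1925 genes with over 8 kb of exon the median deviation was 0.08, 0.12 and -0.07 in vector libraries 1 to 3, with -0.01, -0.10 and -0.01 in PTMA libraries 1 to 3. For 1490 genes of 1 to 2 kb it was -0.06, -0.10 and 0.09 in the vector and 0.01, 0.07 and -0.003 in the PTMA libraries. Vector 3 and PTMA 2 were thus low in long and high in short genes, and vector 1 and vector 2 the reverse.

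The longest and the shortest adhesion genes showed the same division. Its part in their log2 fold changes was not tested beyond the length offsets and left-out libraries given next. Itga4 (13978 bases of exon) deviated by 0.21, 0.12 and -0.13 in the vector and 0.02, -0.18 and -0.04 in the PTMA libraries. Itgav (10744 bases) deviated by 0.21, 0.29 and -0.24 and by 0.06, -0.35 and 0.03. Cd2 (1741 bases) went the other way, with -0.10, -0.10 and 0.16 and with -0.03, 0.13 and -0.06. With the median of each of 20 length bins taken out of every library, a step chosen after the data were seen, the log2 fold change was -0.03 for Itga4 in place of -0.14 and -0.11 for Itgav in place of -0.19. For Itgb1 (4081 bases) it was -0.20 in place of -0.18, and it alone of the 10 had an unadjusted p under 0.05, where 4.48% of all genes did. Without vector 3 the values were -0.23 for Itga4, -0.33 for Itgav and -0.15 for Itgb1, all 3 with an unadjusted p under 0.05, in a fit where 15.4% of all genes had one. The lowest adjusted p of the 10 genes there was 0.238 (edgeR). Leaving out some other libraries brought the values nearer to 0: Itga4 was at -0.07 without vector 1 and -0.08 without PTMA 2, and Itgav at -0.07 without vector 2 and -0.07 without PTMA 2. Without PTMA 1 both lay farther from 0, at -0.18 for Itga4 and -0.26 for Itgav. Itgav was also farther out without PTMA 3, at -0.23. A fit without vector 3 and PTMA 2 together was also added after the data were seen. In it Itga4 was at -0.18 and Itgav at -0.21, both farther from 0 than with all 6 libraries, and Itgb1 at -0.15. All 3 had an unadjusted p under 0.05 (edgeR), where 10.99% of all genes had one, and the lowest adjusted p of the 10 genes was 0.422.

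**Figure D3:**
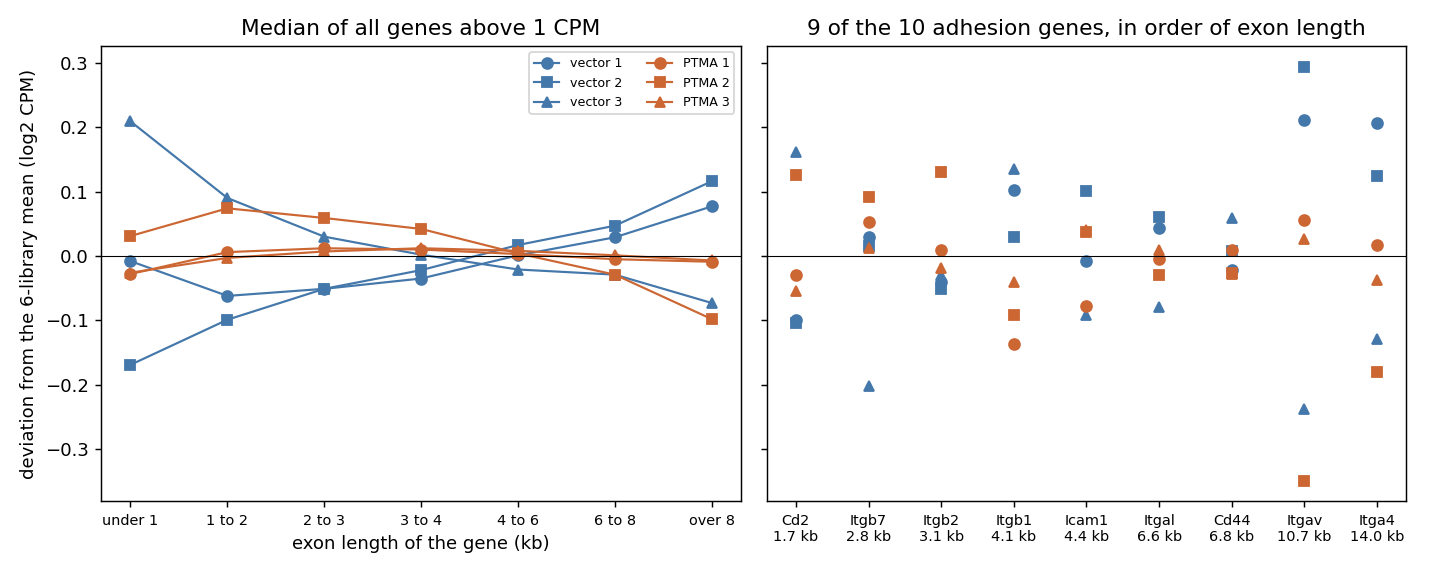
Deviation of each library from the 6-library mean (log2 CPM) by exon length in kilobases: left, the median of all genes above 1 CPM in 7 length classes; right, 9 of the 10 adhesion genes in order of length, Itgae being left out for its low counts. Vector 3 and PTMA 2 lie at the bottom for Itgav and Itga4 and at the top for Cd2.

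How far partner subunits were in balance was read from their FPKM ratio within each library. Itgb2 exceeded Itgal 3.35-fold to 4.04-fold, Itgb1 exceeded Itga4 7.15-fold to 9.56-fold, and Itgb7 exceeded Itga4 24.5-fold to 33.5-fold. Itgb1 exceeded Itgav 11.98-fold to 18.8-fold. These folds depend on the length used, as Itga4 has 13978 bases of exon against 9767 in its longest coding transcript. Per kilobase of that transcript, the vector means were 8.38 CPM for Itga4, 5.03 for Itgav, 50.3 for Itgb1 and 154 for Itgb7. On that basis the beta chains still stood higher, by smaller folds. The ratio of Itgb7 to Itgb1 was 3.31, 3.45 and 2.76 in vector libraries 1 to 3, against 3.98, 3.96 and 3.62 in PTMA libraries 1 to 3. The Itgb7 to Itga4 ratio was 24.5, 25.7 and 26.4 in the vector and 28.4, 33.5 and 28.7 in the PTMA libraries. For these 2 of the 6 ratios the groups did not overlap.

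On the log2 scale Itgb1 against Itgb7 was lower by 0.28 (a difference of -0.28) and Itga4 against Itgb7 by 0.24 (-0.24) in the PTMA libraries. The exact two-sided permutation test over 20 splits gave p = 0.1 for each, the smallest it can give with 3 against 3, and 0.3 after adjustment over the 6 ratios. So neither passed, and the design could not have reached 0.05. Both share Itgb7, and both are made of genes already given above, so they are not separate evidence. The differences were -0.10 for Itgal against Itgb2 (exact p = 0.3), 0.04 for Itga4 against Itgb1 (exact p = 0.8), -0.0015 for Itgav against Itgb1 (exact p = 1) and -0.02 for Itgae against Itgb7 (exact p = 1). Without vector 3, where Itgb7 was low, Itgb1 against Itgb7 was at -0.19 in place of -0.28. Itga4 and Itgb7 differ in exon length, with 13978 against 2770 bases. With the length offsets given above, the log2 fold change was -0.03 for Itga4 in place of -0.14 and 0.06 for Itgb7 in place of 0.10. The ratios themselves were not taken with these offsets, and the part of length in them was not tested.

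**Figure D4:**
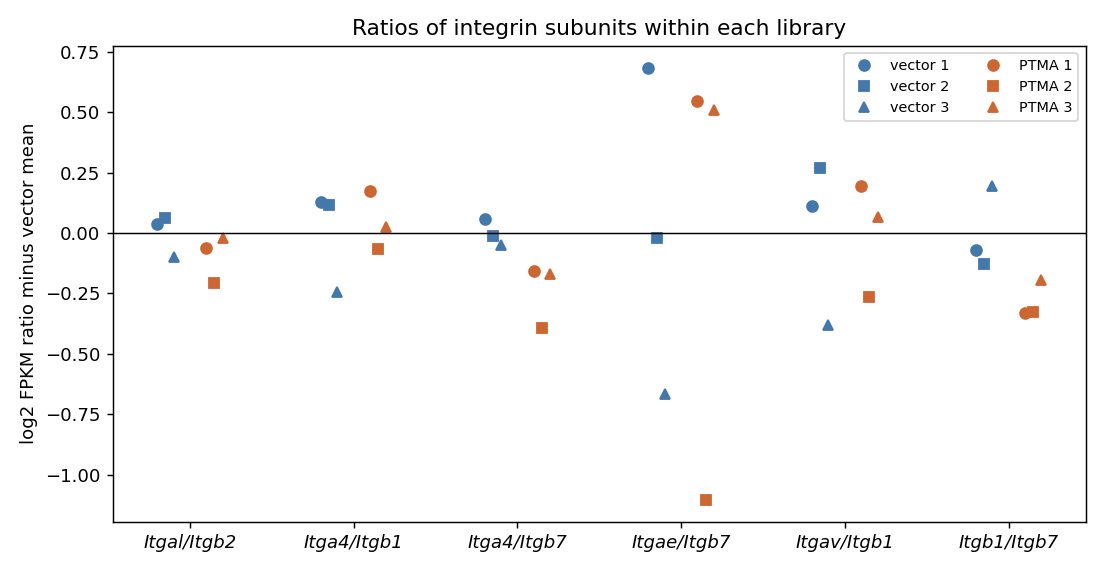
Log2 ratio of the FPKM of 2 subunits within each library, minus the mean of the vector libraries, for 6 pairs; blue points are vector and orange points PTMA libraries, with shapes for replicate numbers. The PTMA libraries lie below all vector libraries for Itga4/Itgb7 and Itgb1/Itgb7 and mix with them elsewhere.

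Around these genes, 7 lists of adhesion genes held 135 names, of which 120 were tested, and 0 passed by edgeR (0.0121% of all genes did) or by DESeq2. At an unadjusted p under 0.05 there were 6, which is 5% against 4.65% of all genes. Of the 120, 55 had a log2 fold change above 0 and 65 below, with a median of -0.01 (-0.007). The list of other integrin subunits held the lowest median, -0.15 over 13 tested genes, 9 of them below 0. Over the alternatives it lay between -0.28 and -0.01. Some of the 13 genes had group means under 1 CPM, such as Itga7 at 0.38 CPM in vector libraries. The best counted, Itgb3 and Itga6, had log2 fold changes of -0.43 and -0.06.

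Among the other integrin subunits, the beta chain Itgb3, which pairs with Itgav, stood at 57.0, 64.2 and 42.3 CPM in vector libraries 1 to 3, with 35.7, 38.9 and 46.4 CPM in PTMA libraries 1 to 3. PTMA 3 lay above vector 3, and the log2 fold change was -0.43 (SE 0.16; edgeR, adjusted p = 0.951). The collagen receptor chain Itga2 was at 2.18 ± 0.35 CPM in vector and 1.47 ± 0.16 CPM in PTMA libraries (SD, n = 3 each), and Itga7, a laminin receptor chain, at 0.38 ± 0.32 and 0.87 ± 0.47 CPM. The laminin receptor chain Itga6 stood at 35.8 to 41.4 CPM over all 6 libraries. Itgam, a myeloid partner of Itgb2, had 0 counts in all vector libraries, which allows up to 0.0536 CPM in a library, and at most 0.231 CPM in a PTMA library. Itgax, another partner of Itgb2, stood at 2.40 to 3.85 CPM.

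Of the ligands, 9 of 15 were tested and 6 were above 0. Icam2, a second ligand of the Itgal pair, had 104, 97.5 and 108 CPM in vector and 122, 118 and 106 CPM in PTMA libraries (log2 fold change 0.16, SE 0.08). Icam4 was at 1.22 ± 0.30 and 1.72 ± 0.41 CPM and the matrix proteoglycan gene Vcan at 0.12 ± 0.12 and 0.28 ± 0.12 CPM in vector and PTMA libraries (SD, n = 3 each). Cd48, the ligand of Cd2, stood at 269 to 334 CPM with a log2 fold change of 0.01, and Spp1, the secreted integrin ligand osteopontin, at 475 to 630 CPM with one of 0.07. Vcam1 and Madcam1, which are among the ligands of the Itga4 pairs but not all of them, were at or below 0.145 CPM in every library. So was Cdh1, the ligand of Itgae.

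The list of inside-out activation mixes genes that switch integrins on with genes that hold them off, so its count and median do not report activation. In it 11 of 23 were above 0, with a median of -0.01 and values from -1.91 for Fermt2 to 0.16. Cyth1, a guanine exchange factor that binds the Itgb2 tail, was at 157 ± 6.32 and 173 ± 5.79 CPM in vector and PTMA libraries (SD, n = 3 each), with groups that did not overlap (log2 fold change 0.15, SE 0.07). The kinase gene Stk4 was at 235 ± 13.3 and 214 ± 9.18 CPM. Fermt2, a kindlin gene, was near the floor, with groups that did not overlap, at 0.29 ± 0.08 and 0.08 ± 0.07 CPM. Fermt3, the other kindlin gene of the list, had a log2 fold change of 0.10.

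In the list of focal adhesion and outside-in signalling, 2 of 23 genes had an unadjusted p under 0.05, in opposite directions, where 4.65% of all genes tested did. Vcl, which encodes vinculin and ties talin to actin, had 13.7, 12.6 and 11.7 CPM in vector libraries 1 to 3, with 8.63, 8.88 and 10.5 CPM in PTMA libraries 1 to 3. All PTMA libraries were lower, with a log2 fold change of -0.44 (SE 0.13; edgeR, adjusted p = 0.951). Ilk, a pseudokinase that binds beta tails, had 215, 242 and 219 CPM in the vector and 282, 261 and 247 CPM in the PTMA libraries, all higher, with a log2 fold change of 0.23 (SE 0.08; edgeR, adjusted p = 0.951). Actn1, an actin crosslinker of adhesions, stood at 15.9 ± 0.99 and 13.9 ± 0.46 CPM in vector and PTMA libraries (SD, n = 3 each). The unadjusted p-values of Vcl and Ilk were 0.00834 and 0.0159.

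The partners of Cd44 and Cd2 had 4 of 13 above 0. Adam10, a protease that sheds Cd44, had 114, 120 and 112 CPM in vector and 100, 99.8 and 103 CPM in PTMA libraries, which did not overlap (log2 fold change -0.19, SE 0.06; edgeR, adjusted p = 0.951). Nf2, the merlin gene, was at 53.4 ± 6.89 and 45.8 ± 2.97 CPM, and Hyal2, a hyaluronidase, at 20.2 ± 0.61 and 22.7 ± 1.67 CPM in vector and PTMA libraries (SD, n = 3 each). Of the other adhesion receptors of T cells, 15 of 24 were above 0, with a median of 0.02. The tetraspanin Cd81 had a log2 fold change of 0.18 (SE 0.08), and the homotypic receptors Slamf6 and Slamf1 had 0.14 (SE 0.07) and 0.16 (SE 0.09).

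The TGF-beta arm, which controls Itgae and is in turn fed by Itgav, had 6 of 15 above 0 and a median of -0.04. Skil, a repressor of SMAD signalling, had 18.97, 19.98 and 18.99 CPM in vector and 16.3, 14.4 and 16.1 CPM in PTMA libraries. The groups did not overlap, and the log2 fold change was -0.31 (SE 0.10; edgeR, adjusted p = 0.951). Tgfb2, a ligand gene at low counts, was at 1.47 ± 0.28 and 0.50 ± 0.49 CPM and Smad2, a signal transducer, at 71.1 ± 2.28 and 78.0 ± 4.79 CPM in vector and PTMA libraries (SD, n = 3 each). The other ligand genes of the list, Tgfb1 and Tgfb3, had log2 fold changes of -0.16 and 0.04.

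**Figure D5:**
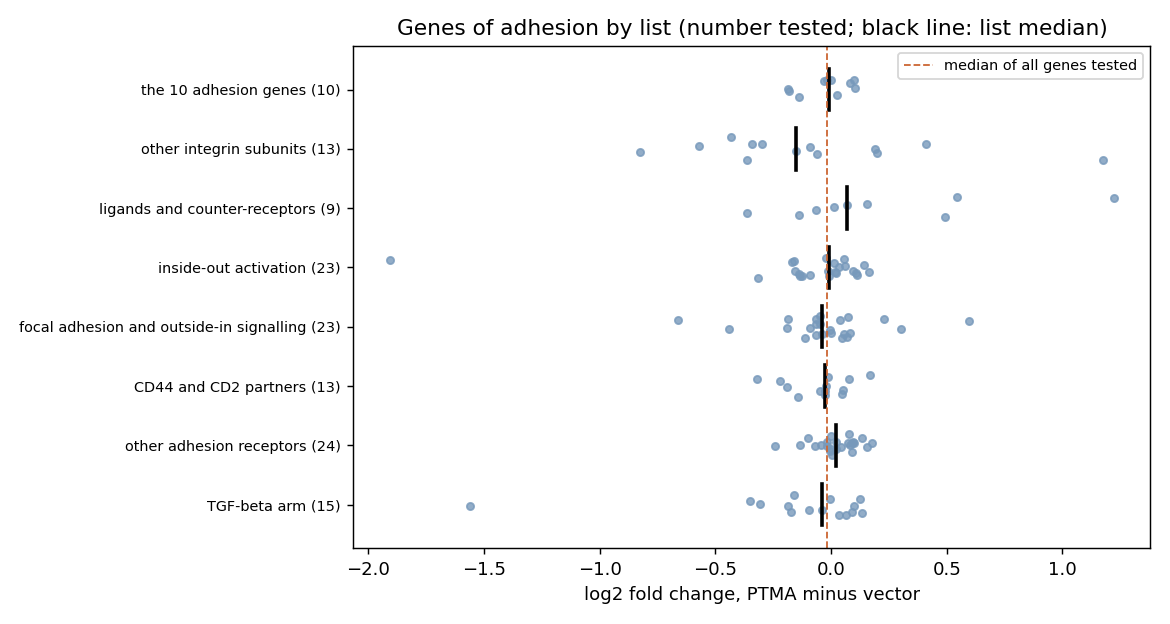
Log2 fold change, PTMA minus vector, of each tested gene (points) in the 10 adhesion genes and 7 lists around them; black lines are list medians and the dashed line the median of all 16592 genes tested, with points spread vertically for legibility. The medians lie between -0.15 and 0.07, and the points far from 0 are low-count genes such as Fermt2 and Tgfb2.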

How the data were processed

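Poly(A) RNA of 6 libraries (3 vector, 3 PTMA; groups and replicate numbers from the titles) was sequenced paired-end. The deposited table holds raw counts per gene, not normalized, and FPKM per gene, both per the file headers. Tools listed in the submitters' processing notes are Bowtie 0.12.2, HISAT2 2.0 and StringTie 1.3.0, along with mm8 as the build. The sources used here give neither the counting program nor its use of strand. Coordinates fit GRCm38, since 99.8% of the 27405 identifiers that GENCODE M21 also holds have its start or end. For 10137 well-counted genes (200 counts or more per library), 98.9% of the ratios of count to FPKM were, within 2% of the library median, proportional to the summed exon length of GENCODE M21.

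Counts were tested with edgeR 4.0.16 (R 4.3.3; TMM, filterByExpr with a minimum count of 10, quasi-likelihood test, group as the only term), with p-values adjusted by Benjamini-Hochberg over 16592 genes and a threshold of 0.05. CPM is TMM-scaled, and 95% intervals use the fit's t distribution. Floors take 3 counts (0.0456 to 0.0536 CPM) and cover counting error only. Subunit ratios were tested by exact permutation. Named genes are the 10 members, Ptma and, from each list, up to 4 genes past the threshold or else the 3 with the smallest p. Outside that rule, Itga6, Itgam, Itgax, Cd48, Spp1, Vcam1, Madcam1, Cdh1, Fermt3, Tgfb1 and Tgfb3 are named from the lists. Cell type markers and the overlapping genes Cerkl and Haspin are named too. The members and lists were chosen with earlier results of these data known. Alternatives used DESeq2 1.42.0, limma 3.58.1 on log2(FPKM + 1) and log2(FPKM + 0.1), other scalings and filters, a replicate block, each library left out and, added after the data were seen, length-bin offsets, vector 3 and PTMA 2 left out together, and levels per longest coding transcript. Tested on simulated counts for the comparison of PTMA with vector (16090 genes), edgeR found 52.2% of 67 genes with a 1.5-fold change, 70.1% of 67 with a 2-fold and 97% of 66 with a 4-fold change. It also called 6 genes simulated without one. The simulation drew every gene and library independently, with a spread set by the level of the gene. It left out the length pattern of vector 3 and PTMA 2, and no fold under 1.5 was simulated. These rates therefore do not give the power for the smaller differences of the 10 genes. Replicates of a group differed by a chi-square of 17.7 to 84.8 per gene, more than counting noise, and none were merged; this does not show that they came from separate cultures. The values of 1 gene in the lists are not reported here.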

Additional observations from a re-analysis of the deposited data

How the results depend on the processing

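No alternative called any of the 10 adhesion genes or any gene of the 7 lists. The number of genes called over the whole table, 2 as reported, was 0 with no filter on low counts, 47 with DESeq2, 1 with limma on log2(FPKM + 1), 1 with limma on log2(FPKM + 0.1), 0 with limma without a filter, 0 with a replicate block and 0 to 4 with each library left out. Itgb2, Itga4, Itgb1, Itgb7 and Itgav kept the sign of their log2 fold change in all 17 alternatives. For Icam1 it was 0.0031 with median-of-ratios scaling, 0.0076 with no filter, 0.0107 with DESeq2 and 0.0003 with limma on log2(FPKM + 0.1). Cd2 was at -0.0019 with libraries scaled to the same sum and, with length-bin offsets, at -0.0020, where Cd44 was at 0.0067. With each library left out, the values ran from -0.0584 to 0.0186 for Itgal, -0.0334 to 0.12 for Cd2, -0.0460 to 0.06 for Icam1, -0.23 to -0.07 for Itga4, -0.33 to -0.07 for Itgav, 0.04 to 0.13 for Itgb2, 0.03 to 0.14 for Itgb7 and -0.20 to 0.55 for Itgae. The subunit ratios ran from -0.0772 to 0.11 for Itga4/Itgb1, -0.35 to 0.53 for Itgae/Itgb7 and -0.19 to 0.13 for Itgav/Itgb1. Without vector 3 and PTMA 2 together, Itga4/Itgb1 was at -0.0214 and Itgae/Itgb7 at 0.20. Itgav/Itgb1 was at 0.0040 and 0.0396 with a pseudocount of 0.1 and 1. The cause of these moves was not tested. Libraries that share a replicate number did not move as pairs (correlations of deviations across genes of 0.05, -0.22 and -0.15, and 0 of 3 vector libraries correlated best with their own number), while vector 3 and PTMA 2 had a correlation of 0.30. With the replicate block, Itgb1 was at -0.18 (unadjusted p = 0.0519, edgeR), and for Itgb1/Itgb7, whose difference of -0.28 pairing cannot alter, the exact sign-flip p was 0.25, the smallest that 3 pairs can give. Itgae had the fewest counts of the 10, 22 to 65 per library.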

Other observations

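The deposited annotation places the 10 adhesion genes in shared terms, read here after the data were seen. All 10 carry the GO term for cell adhesion, 8 the KEGG term for cell adhesion molecules and 7 each the GO term for the integrin complex and the KEGG term for the actin cytoskeleton. Over 240 tested genes of cell adhesion, 112 had a log2 fold change above 0 and 128 below, with a median of -0.02, beside -0.01 (-0.015) over all genes tested. The integrin complex had 7 of 21 above 0 and a median of -0.14, and the KEGG term for interaction with the extracellular matrix 13 of 39 and a median of -0.15. Focal adhesion had 51 of 127 above 0 with a median of -0.04, and leukocyte transendothelial migration 33 of 74 with one of -0.01 (-0.009). The GO term for the external side of the plasma membrane, carried by 6 of the 10 adhesion genes, had 111 of 217 above 0. Its median was 0.006, and 13 of its genes had an unadjusted p under 0.05 (edgeR). All these terms hold some of the 10 genes, so they are not separate evidence. No gene of these terms passed the edgeR test at an adjusted p of 0.05. At an unadjusted p under 0.05 there were 14 of 240 genes of cell adhesion, 8 of 127 of focal adhesion, 3 of 39 of matrix interaction, 2 of 21 of the integrin complex, 5 of 85 of cell adhesion molecules, 2 of 74 of transendothelial migration and 5 of 155 of the actin cytoskeleton, where 4.65% of all genes tested had one.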
